A study of Mus musculus with 31 samples.

Results

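Somatic development of the ovary was followed in Wv/Wv mouse embryos, whose Kit gene carries the Wv point mutation, by setting Wv/Wv ovaries at 14 days after mating (14 dpc) against Wv/Wv ovaries at 12 dpc. The comparison used all arrays of both groups, 3 at 14 dpc and 2 at 12 dpc, 5 of the 31 arrays in the series. Each array read the RNA of 1 whole-ovary sample. The series also holds wild-type ovaries and wild-type and Wv/Wv testes at the same ages and at 16 dpc, and 4 of these groups served for comparison: wild-type ovaries (2 arrays at 12 dpc and 3 at 14 dpc) and Wv/Wv testes (3 arrays at 12 dpc and 2 at 14 dpc). The Wv allele was carried in every cell of the mutant embryos, and the wild-type embryos carried no listed mutation. The labels name neither the strain nor whether embryos were pooled. Replicates are marked as biological, with no word on whether each came from its own embryo, so each p-value rests on the spread from array to array, part of which may be technical.

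Kit is the receptor for stem cell factor, and primordial germ cells depend on it to survive, divide and reach the gonad. A gonad of a Wv/Wv embryo therefore consists mostly of somatic cells, although it is not free of germ cells. In this window the supporting cells of the ovary take on the pregranulosa fate, under WNT signalling through Rspo1 and Wnt4 and under the forkhead factor Foxl2, while the mesonephros, the transient kidney beside the gonad, regresses in females. The RNA was that of whole organs, so fewer cells of a type and less RNA per cell cannot be told apart.

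The 5 arrays were of 2 kinds. Both 12 dpc arrays had an SD over all probe sets of 2.34 and 2.33, and 14 dpc array 1 had 2.38, while 14 dpc arrays 2 and 3 had 2.10 and 2.01, below the boundary of 2.25 that parts 21 wide-spread from 10 narrow-spread arrays in the series. The difference between the 3′ and 5′ control probe sets of Gapdh, a measure of how much of the transcript was copied, was 1.97 and 1.79 at 12 dpc, 2.28 on 14 dpc array 1, and 0.68 and 0.61 on arrays 2 and 3. The SD over genes of the difference between arrays was 0.289 at 12 dpc, 0.757 and 0.893 between 14 dpc array 1 and the others, and 0.399 between arrays 2 and 3. Array 1 at 14 dpc is therefore the one that shares its kind with the 12 dpc arrays, and the change on it alone is given beside the change on arrays 2 and 3. A second fit held the array class as a term, without wild-type testis 16 dpc array 1, the array of lowest SD, and is called the class-adjusted fit. Against the labelled organ, Foxl2 lay between 7.50 and 9.58 on the 5 ovary arrays and had means of 6.35 and 6.92 in Wv/Wv testes at 12 and 14 dpc. The Sertoli cell gene Sox9 lay between 6.06 and 7.32 in these ovaries and had testis means of 7.96 and 8.76, and Amh lay between 5.88 and 6.79 with testis means of 6.75 and 9.85. The Wv mutation leaves the Kit transcript in place, so its level (6.83 to 8.62) does not check the genotype.

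From 12 to 14 dpc transcripts that rose in the mutant ovary included 4 of 25 pregranulosa genes, among them Irx3, Lgr5 and Foxl2, the steroid enzyme Hsd3b1 and the retinaldehyde dehydrogenase Aldh1a1. Those that fell included 4 of 14 mesonephros and tubule genes, 2 of 14 erythroid genes, 3 of 13 neuron and glia genes and 4 of 17 retinoic acid genes. Most measured members of each of these lists were not called. Of 18194 genes tested with limma, 280 (1.54%) were called, with an adjusted p (Benjamini-Hochberg) under 0.05, 130 higher (0.715%) and 150 lower (0.824%) at 14 dpc, and 2530 had an unadjusted p below 0.05. The median change over all genes was −0.04 on the log2 scale. The class-adjusted fit called 1215 genes (6.68%), 682 higher (3.75%) and 533 lower (2.93%), and these held 129 of the 130 rises and 149 of the 150 falls. For all 280 called genes the 3 arrays of 14 dpc lay on 1 side of both 12 dpc arrays, which held for 11.9% of all genes on the higher and 18.5% on the lower side.

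The genes were called with 14 dpc array 1 in the fit, so its values for them are a description. The 130 risen genes differed from the 12 dpc mean by a median of 1.42 on array 1 and 1.48 on arrays 2 and 3, and the 150 fallen genes by −1.54 and −2.11. The number of calls rested on single arrays: it was 61 without 12 dpc array 1, 91 without 12 dpc array 2, 908 without 14 dpc array 1, 153 without array 2 and 151 without array 3. It also rested on scaling, since centring each array on housekeeping genes moved the median of all genes to 0.32 and called 403 higher and 168 lower, 70.6% higher against 46.4%. Of 50 called genes named by the rules given with the processing, 16 stayed called with each of the 5 arrays left out in turn. For the other 34 the highest adjusted p so reached is given where the gene is described. Called genes named outside those rules, such as Foxl2os, Gstm1 and Car2, were not followed singly in this way.

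**Figure D1:**
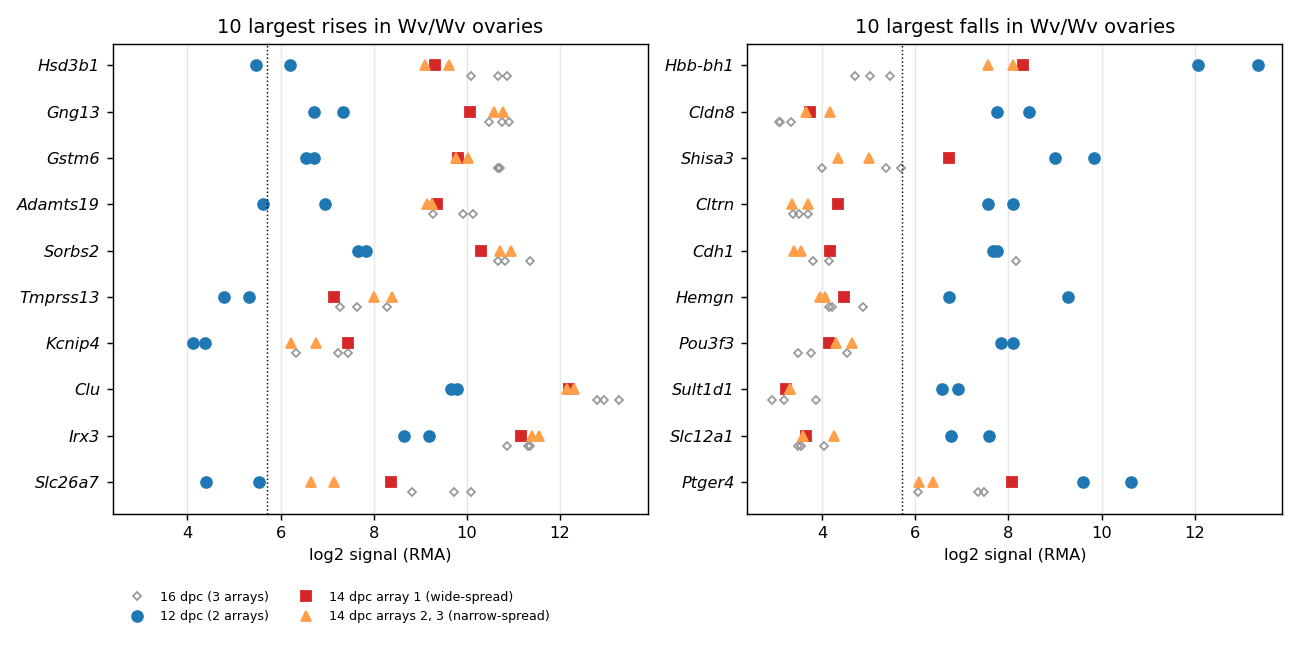
Log2 signal (x axis) of the 10 called genes that rose most and the 10 that fell most on each Wv/Wv ovary array, with 12 dpc as blue circles, 14 dpc array 1 as a red square, 14 dpc arrays 2 and 3 as orange triangles, and 16 dpc as open grey diamonds. The dotted line marks the low-signal limit of 5.705. In every row the 14 dpc arrays lie on 1 side of the 12 dpc arrays, as the choice of genes required.

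The largest rise was that of Hsd3b1, a 3-beta-hydroxysteroid dehydrogenase that converts pregnenolone to progesterone, at 5.46 and 6.19 at 12 dpc and 9.31, 9.10 and 9.62 at 14 dpc. The groups lay far apart, with a change of 3.51 ± 0.44 (SE, adjusted p = 6.92e-05). Its probes may also read close paralogues. Gng13, a G protein gamma subunit, read 6.71 and 7.34 and then 10.06, 10.59 and 10.78, a change of 3.45 ± 0.37. All 3 later arrays were high and close together. Gstm6, a mu-class glutathione transferase, went from 6.54 and 6.72 to 9.81, 9.76 and 10.02, and Adamts19, a secreted metalloprotease, from 5.62 and 6.95 to 9.35, 9.13 and 9.26. Adamts19 had 12 dpc arrays far apart, and its adjusted p reached 0.0716 without 12 dpc array 1.

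Among the other large rises, Sorbs2, an adaptor of the actin cytoskeleton, read 7.84 and 7.65 at 12 dpc and 10.29, 10.72 and 10.94 at 14 dpc, a change of 2.91 ± 0.39. Clu, the secreted chaperone clusterin, read 9.65 and 9.78 and then 12.20, 12.15 and 12.29. Its 3 later arrays, of both kinds, lay close together. Kcnip4, a calcium-binding partner of potassium channels, read 4.13 and 4.37 and then 7.45, 6.75 and 6.22, and because both 12 dpc arrays were under the low-signal limit of 5.705, the 40th percentile of all values, its rise is given as at least 2.15-fold. Tmprss13, a membrane serine protease, rose at least 4.43-fold by the same bound and Slc26a7, an anion exchanger, at least 3.22-fold. These last calls were less firm, with adjusted p up to 0.458 for Tmprss13 and 0.621 for Slc26a7 when 12 dpc array 1 was left out. Beside Gstm6, 3 further mu-class enzymes that conjugate glutathione rose, Gstm1 (1.66), Gstm2 (1.68) and Gstm7 (1.44). This family was singled out after its values were seen, 4 of its 20 measured members were called higher and 0 lower, its median change was 0.02, and probes may cross-read within the mu class. With the array class in the fit 5 were higher and 2 lower, the latter being the alpha-class members Gsta2 (−1.55) and Gsta4 (−0.69), and array weights called 4 higher and 3 lower. With 1 array left out, 1 to 4 were called higher.

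The pregranulosa list held 25 measured genes, of which 4 were called higher (Gng13, Irx3, Lgr5 and Foxl2) and 1 lower (Sprr2d), beside 0.715% and 0.824% of all genes. Irx3, an Iroquois homeodomain factor needed for granulosa cell and oocyte contact, read 8.65 and 9.19 at 12 dpc and 11.17, 11.40 and 11.55 at 14 dpc, a change of 2.45 ± 0.27 (adjusted p = 1.34e-05). Lgr5, the R-spondin receptor that marks cortical pregranulosa precursors, read 7.07 and 6.64 and then 9.01, 8.59 and 8.69. Foxl2, the forkhead factor that maintains granulosa identity, read 7.50 and 8.09 and then 9.58, 9.52 and 9.57. The groups of each of these genes were clearly separate, and Foxl2 changed by 1.77 ± 0.27 (adjusted p = 0.000681), with 0.0683 reached without 12 dpc array 1. Another, less bright probe set of each of Gng13, Lgr5 and Foxl2 rose less, by 0.77, 0.41 and 0.42, without being called. Sprr2d, a small proline-rich protein of epithelia, fell from 7.72 and 7.93 to 5.72, 5.42 and 6.04.

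The remaining 20 pregranulosa genes were not called, among them the signals that set up the female pathway. Wnt4, the ligand required for ovarian fate, stood at 11.42 and 11.46 at 12 dpc and 11.96, 11.42 and 11.24 at 14 dpc, a difference of 0.10 ± 0.44. Another, less bright probe set of Wnt4 changed by 1.20 without being called. Rspo1, which amplifies WNT signalling, stood at 8.73 and 8.94 and then 9.52, 9.74 and 9.66, a difference of 0.81 ± 0.36 (adjusted p = 0.331). Rspo1 was higher on every later array without passing the test. Fst, the activin antagonist follistatin, differed by 0.58 ± 0.40, and Bmp2, a BMP ligand of the early ovary, by 0.19 ± 0.40, both with overlapping arrays. In the class-adjusted fit 6 members of the list rose and 2 fell, adding Irx5 (1.11) and Cdkn1b (0.98) above and Wnt5a (−0.66) below. A fit limited to the arrays compared called 2 members higher, and the calls of Foxl2 and Lgr5 were lost. The median change of the list was 0.17, or 0.36 in the class-adjusted fit, and 4 to 6 members were called higher under quantile, cyclic loess and housekeeping scaling and the class-adjusted fit, and 3 to 6 with 1 array left out.

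Foxl2os, the divergently transcribed non-coding neighbour of Foxl2, is named here after its values were seen. It read 5.88 and 6.53 at 12 dpc and 9.22, 8.13 and 8.09 at 14 dpc, a change of 2.27 ± 0.47 (adjusted p = 0.0097). The gene starts of both lie head to head on chromosome 9, at 98955310 and 98955607. The stretch between them is shown because 1 short region serves as the upstream window of both risen transcripts. It is the plus strand of chr9:98955311-98955606 in RefSeq's GRCm38.p6, and capitals mark the 204 of its 296 bases that lie within 250 bases upstream of both starts.
Foxl2 and Foxl2os: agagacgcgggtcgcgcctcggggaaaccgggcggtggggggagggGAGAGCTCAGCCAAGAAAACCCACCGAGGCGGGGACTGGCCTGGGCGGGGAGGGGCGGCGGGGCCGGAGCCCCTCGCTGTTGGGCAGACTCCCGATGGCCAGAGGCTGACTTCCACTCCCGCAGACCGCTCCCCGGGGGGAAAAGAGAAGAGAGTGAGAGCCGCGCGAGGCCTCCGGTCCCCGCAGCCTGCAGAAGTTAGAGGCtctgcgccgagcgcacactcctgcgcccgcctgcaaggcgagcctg
The stretch is 72% G and C and holds 29 CpG sites, against a median of 52.7% and 7 over the RefSeq upstream windows of all genes, which are 300 bases long.

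**Figure D2:**
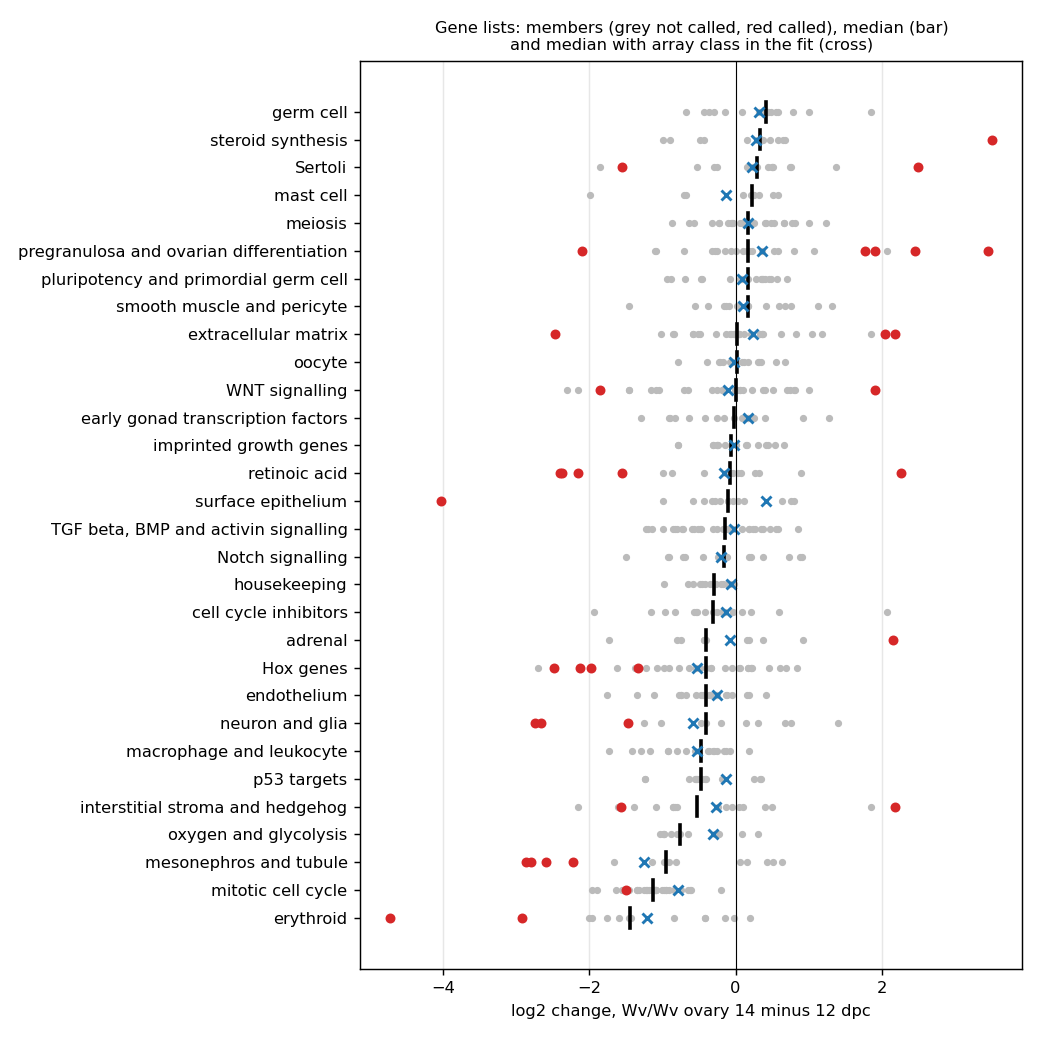
Log2 change from 12 to 14 dpc in Wv/Wv ovaries (x axis) for the measured members of 30 gene lists (rows), with called members in red, others in grey, the median as a black bar and the median of the class-adjusted fit as a blue cross. The erythroid list has the lowest median of this fit (−1.45), though not of the class-adjusted fit, where it is at −1.21 and the mesonephros and tubule list at −1.25. The mitotic list, with a median of −1.13, and the housekeeping list, with a median of −0.30, lie wholly below 0.

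Few members of the signalling lists were called. In the WNT list of 30, Lgr5 was called higher and Dkk1, a secreted WNT antagonist, lower, from 7.36 and 6.90 to 5.38, 4.92 and 5.55. Its later arrays were all under the low-signal limit, a fall of at least 2.69-fold with adjusted p up to 0.151 with 12 dpc array 1 left out. Of 34 genes of TGF beta, BMP and activin signalling and 16 of Notch signalling, 0 were called in either direction by limma. The largest differences in those lists, Bmp4 at −1.23 ± 0.37 (adjusted p = 0.112) and Rbpj at −1.50 ± 0.80 (adjusted p = 0.387), did not pass, and the class-adjusted fit called 1 and 2 members lower.

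The transcription factors that form the gonad before sex determination gave 0 calls among 17 measured members, and 1 higher and 1 lower in the class-adjusted fit. Wt1 differed by −0.02 ± 0.31, Lhx9 by 0.17 ± 0.38, Nr5a1, the master factor of steroidogenic cells, by 0.93 ± 0.39 and Gata4 by 1.28 ± 0.40. Gata4 read 8.66 and 9.50 and then 10.20, 10.53 and 10.35, higher on each later array, with an adjusted p of 0.125. Of 12 steroid synthesis genes, Hsd3b1 was the 1 called. Cyp11a1, the side-chain cleavage enzyme that begins steroid synthesis, stood at 5.66 and 5.60 and then 4.66, 4.48 and 4.77, under the low-signal limit on all 5 arrays, and Star, which delivers cholesterol to it, stood between 5.94 and 6.90. In the adrenal list of 11 genes, Mrap, the accessory protein of melanocortin receptors, was called higher, from 4.16 and 3.83 to 5.59, 6.29 and 6.58, a rise of at least 1.36-fold. No other adrenal gene was called by limma, although Nr5a1 and Cyp11b1 were also higher on every later array. In all 3 genes of the list were higher and 3 lower on every later array. The median change was −0.40, with 6 of 11 members below 0. The class-adjusted fit called 1 adrenal gene higher and 2 lower. The mean of the list was 6.60 and 6.83 at 12 dpc and 6.51, 6.69 and 6.74 at 14 dpc. Of 17 Sertoli cell genes, Clu was called higher and Cyp26b1 lower, while Sox9 (0.44 ± 0.56) and Amh (0.50 ± 0.81) overlapped between ages.

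Retinoic acid, made by aldehyde dehydrogenases and degraded by CYP26 enzymes, acts through nuclear receptors that bind response elements near their targets. Of 17 measured genes of this pathway, 1 was called higher and 4 lower. Aldh1a1, a retinaldehyde dehydrogenase, read 9.10 and 9.84 at 12 dpc and 12.23, 11.37 and 11.59 at 14 dpc, a change of 2.26 ± 0.45. The later arrays stood apart from the earlier ones, although the adjusted p reached 0.262 without 12 dpc array 1. The 4 falls were in proteins that bind retinoids or clear them. Crabp1 and Crabp2, the cytoplasmic binding proteins, went from 9.50 and 9.22 to 7.30, 7.17 and 6.38, and from 9.22 and 9.32 to 7.21, 7.44 and 6.71. Rarb, a retinoic acid receptor that is itself induced by retinoic acid, went from 8.81 and 7.74 to 6.74, 5.76 and 5.19, a change of −2.38 ± 0.60 (adjusted p = 0.0442). Cyp26b1, the degrading enzyme that keeps germ cells of the testis out of meiosis, went from 7.32 and 6.80 to 5.81, 5.48 and 5.20. All 4 fell on every later array, yet each was lost with at least 1 array left out, with adjusted p up to 0.361 for Crabp1, 0.103 for Crabp2, 0.641 for Rarb and 0.344 for Cyp26b1. Housekeeping centring kept 2 of the 4, quantile and cyclic loess scaling all 4. A fit limited to the arrays compared called 0 genes of this list in either direction.

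The upstream sequence of Rarb is shown because it carries the response element of its own receptor family. The stretch is the minus strand of chr14:16575477-16575726 in RefSeq's GRCm38.p6, 250 bases that end just before the gene start, and capitals mark both arms of a direct repeat with a 5-base spacer.
Rarb: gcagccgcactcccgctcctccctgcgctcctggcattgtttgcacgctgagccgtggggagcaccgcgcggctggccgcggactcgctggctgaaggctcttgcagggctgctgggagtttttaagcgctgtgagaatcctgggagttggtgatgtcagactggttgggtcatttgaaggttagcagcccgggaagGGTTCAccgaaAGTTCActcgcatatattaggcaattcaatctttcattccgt
The marked element begins 53 bases before the gene start. The retinoic acid response element searched was the arm GGTTCA, any 5 bases and the arm AGTTCA, on both strands of 300-base windows around the starts, and 2 of 32851 windows (0.00609%) held it. Among called genes with a window, 0 of 101 that rose and 1 of 109 that fell, Rarb, held it. The arms searched are those marked in the Rarb sequence, so the match of Rarb was fixed by the pattern. Other spellings of the element were not searched, and nothing is read from these counts.

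Of 32 extracellular matrix genes, Mgp and Eln were called higher and Vcan lower. Mgp, matrix Gla protein, read 7.99 and 7.60 at 12 dpc and 9.62, 10.28 and 10.02 at 14 dpc. Eln, elastin, read 6.57 and 6.94 and then 8.56, 9.15 and 8.70, so that both were high on all later arrays, with adjusted p up to 0.0987 and 0.0888 with 1 of the 12 dpc arrays left out. Vcan, the large proteoglycan versican, went from 11.69 and 10.91 to 9.93, 8.77 and 7.83, with adjusted p up to 0.463, and 6 of its 8 probe sets had the same sign. The class-adjusted fit called 5 matrix genes higher, adding the collagen VI chains Col6a1 (1.49), Col6a2 (1.46) and Col6a3 (0.65), and 1 lower. With 1 array left out the fit called 1 to 2 higher. In the stroma and hedgehog list of 18, Mgp was called higher and Gli1, the transcription factor that reads out hedgehog signalling, lower (−1.56 ± 0.38, adjusted p up to 0.664 with 1 array left out). Nr2f2, the nuclear receptor of interstitial progenitors, differed by −0.83 ± 0.45 and was lower on every later array. All 6 of its probe sets fell and 0 were called. The class-adjusted fit called 4 of this list lower, Nr2f2 among them (−1.35, adjusted p = 0.0366), and 1 higher.

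Genes of the mitotic cell cycle were lower together, though few passed alone. All 31 measured members had a change below 0, with a median of −1.13 beside −0.04 over all genes. With low-signal genes left out all 31 remained, and the median over all genes was −0.26. In 29 of the 31 the later arrays lay below both 12 dpc arrays, beside 18.5% of all genes. The mean of the list was 9.94 and 10.05 at 12 dpc and 9.38, 8.84 and 8.33 at 14 dpc. It was lowest on narrow-spread arrays 2 and 3, and array 1 also stood below both 12 dpc arrays. Aurka, the spindle kinase, was the 1 called, from 9.18 and 9.39 to 8.21, 7.72 and 7.45 (−1.49 ± 0.35, adjusted p = 0.0261, up to 0.254 with 1 array left out), and another probe set of it had the opposite sign. The class-adjusted fit called 21 of the 31 lower, with a median of −0.78, and under quantile, cyclic loess and housekeeping scaling 14, 17 and 14 were called lower with 30 of 31 below 0. The count was 13 without 14 dpc array 1 and 0 without any other of the 5 arrays. Mki67, the proliferation antigen, stood at 11.72 and 11.82 and then 11.37, 10.60 and 10.07. Cdkn1b, the kinase inhibitor p27 that marks pregranulosa cells leaving the cycle, stood at 8.81 and 9.39 and then 10.20, 11.40 and 11.90, higher on each later array, with 2.07 ± 0.61 (adjusted p = 0.102) and 0.98 (adjusted p = 0.00393) in the class-adjusted fit. All 15 measured housekeeping genes also had a change below 0, with a median of −0.30. In 6 of them the later arrays lay below both 12 dpc arrays. The housekeeping list mean was 12.03 and 12.06 at 12 dpc and 12.00, 11.61 and 11.46 at 14 dpc. The narrow-spread arrays thus read lower for these genes too, and the part of this in the mitotic values was not tested.

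Several genes of tubular epithelium were among the largest falls, beside the globin Hbb-bh1, which fell most, and Shisa3. Cldn8, a tight-junction claudin of the distal nephron, read 8.44 and 7.76 at 12 dpc and 3.75, 4.17 and 3.65 at 14 dpc, a fall of at least 5.24-fold because the later arrays were under the low-signal limit. Cltrn, the renal membrane protein collectrin, fell at least 4.38-fold, from 7.57 and 8.10 to 4.34, 3.69 and 3.35. Pou3f3, a homeodomain factor of the kidney tubule and brain, read 7.83 and 8.11 and then 4.14, 4.63 and 4.31, and Slc12a1, the salt cotransporter of the loop of Henle, 6.77 and 7.59 and then 3.65, 3.59 and 4.26. These 4 genes were chosen among called genes without overlap between ages, so their lack of overlap follows from the choice. In them 14 dpc array 1 sat with the narrow-spread arrays. Cdh1, E-cadherin of epithelial junctions, read 7.76 and 7.68 and then 4.16, 3.54 and 3.39, and Sult1d1, a sulfotransferase, 6.58 and 6.91 and then 3.22, 3.31 and 3.31. Cltrn kept its call with each array left out, whereas the adjusted p reached 0.375 for Cldn8, 0.383 for Cdh1, 0.0556 for Pou3f3, 0.14 for Slc12a1 and 0.0645 for Sult1d1. Another probe set of Pou3f3 and of Slc12a1 had the opposite sign (0.10 and 0.13) without being called.

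Of 14 mesonephros and tubule markers, 4 were called lower and 0 higher, beside 0.824% of all genes called lower. Lrp2 and Cubn, the partner receptors that take up filtered protein, went from 7.61 and 7.67 to 4.73, 4.82 and 4.77, and from 6.55 and 6.76 to 4.33, 4.79 and 4.17. Cdh16, a cadherin of kidney epithelium, went from 9.96 and 9.56 to 7.53, 6.45 and 6.89, and the embryonic claudin Cldn6 from 8.59 and 8.61 to 6.00, 5.91 and 6.10. Each of these was low on all 3 later arrays, of both kinds. The mean of the list was 7.54 and 7.29 at 12 dpc and 6.23, 6.45 and 6.52 at 14 dpc, and its summed linear signal was 3507 to 3803 and 2359 to 2803. In the class-adjusted fit 7 members were called lower, and 1 to 4 were called with 1 array left out, Lrp2 each time, while the adjusted p reached 0.0556 for Cubn, 0.458 for Cdh16 and 0.128 for Cldn6. Of the 3 probe sets of Lrp2, 2 had the same sign and 1 of these was called, and the third changed by 0.14. The median of the list was −0.95 and 9 of 14 members were below 0, but with low-signal genes left out 9 members remained, 2 of them called lower, and their median was 0.07 with 5 above 0. Other tubule genes were not called. Pax8, a factor of nephric epithelium that also marks Müllerian tissue, stood at 7.45 and 6.87 and then 7.68, 7.71 and 7.61, and Calb1, a calcium buffer, at 9.78 and 10.01 and then 10.56, 10.01 and 10.41. The share of mesonephric tissue in each dissected sample was not measured, so its part in the called falls of Cldn8, Cltrn, Pou3f3, Slc12a1 and the list itself was not tested. Claudins as a family, chosen after their values were seen, had 4 of 20 called lower (Cldn2, Cldn6, Cldn7 and Cldn8) and 0 higher, with 0 to 5 called lower when 1 array was left out.

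**Figure D3:**
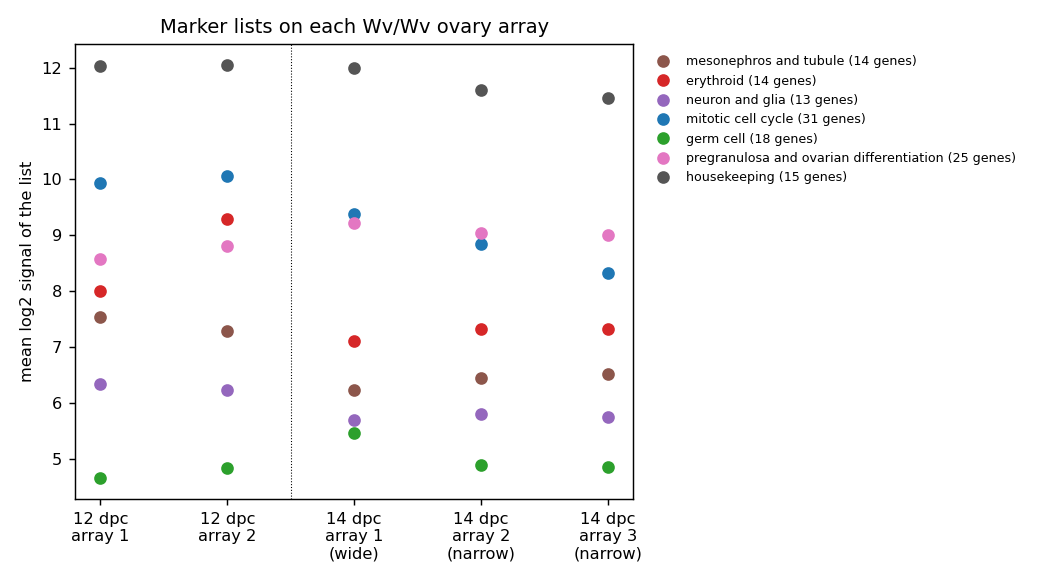
Mean log2 signal (y axis) of 7 gene lists on each of the 5 Wv/Wv ovary arrays (x axis), 1 point per list and array. The mesonephros and tubule list and the neuron and glia list are lower on all 3 arrays of 14 dpc, the erythroid list parts the 12 dpc arrays at 8.00 and 9.30, and the germ cell list is highest on 14 dpc array 1.

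A few red cell transcripts fell, and the list differed between the 12 dpc arrays. Hbb-bh1, the embryonic beta-type globin of primitive red cells, read 12.06 and 13.36 at 12 dpc and 8.32, 8.10 and 7.55 at 14 dpc, a change of −4.72 ± 0.52 (adjusted p = 1.34e-05), the largest fall of all called genes. Slc4a1, the red cell anion exchanger band 3, read 8.26 and 10.35 and then 6.68, 6.42 and 6.05, and Hemgn, hemogen of erythroid precursors, 6.73 and 9.27 and then 4.47, 4.06 and 3.95. Array 2 was above array 1 at 12 dpc in all 3 genes. Of 14 erythroid genes 2 were called lower, the mean of the list was 8.00 and 9.30 and then 7.11, 7.33 and 7.33, and its summed linear signal was 30825 to 53418 and 24120 to 27014. Hbb-bh1 kept its call with each array left out, while the adjusted p reached 0.582 for Hemgn and 0.584 for Slc4a1 without 12 dpc array 2, and 1 of the 3 probe sets of Slc4a1 changed by 0.19, against the sign of the others. The median of the list, −1.45, was −2.47 without 12 dpc array 1 and −0.41 without 12 dpc array 2. The amount of blood in each sample was not measured and its part was not tested.

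Of 13 neuron and glia markers 3, all of neurites, were called lower and 0 higher, beside 0.824% of all genes called lower, and the class-adjusted fit called 4 lower and 1 higher. With low-signal genes left out 5 were tested and 1 was called lower, and leaving out 12 dpc array 1 gave 0 calls. Nefl and Nefm, the light and medium neurofilament chains, went from 8.08 and 7.64 to 5.83, 5.20 and 4.31, and from 9.15 and 8.16 to 6.89, 5.54 and 5.55. Gap43, a growth cone protein, went from 6.87 and 6.85 to 5.64, 5.35 and 5.20, at least 2.23-fold. The arrays of each did not overlap, and the adjusted p reached 0.134, 0.274 and 0.108 without 12 dpc array 1. Of 31 Hox genes, which pattern the body axis, Hoxb6, Hoxb3, Hoxc5 and Hoxa2 were called lower, by 2.48, 2.13, 1.97 and 1.34 on the log2 scale, and 0 were called higher. With the array class in the fit 10 Hox genes were called lower and 0 higher, and with housekeeping centring 2 lower. The adjusted p of the 4 reached 0.163, 0.53, 0.344 and 0.447, in that order, without 12 dpc array 1. Leaving out either 12 dpc array gave 0 calls, and leaving out 14 dpc array 1 gave 7. The median of the list was −0.40, and 20 of 31 members were below 0.

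Outside these lists the largest falls included Shisa3, an endoplasmic reticulum protein that restrains WNT and FGF receptors, which read 9.84 and 9.01 at 12 dpc and 6.72, 5.00 and 4.33 at 14 dpc, a change of −4.07 ± 0.56 (adjusted p = 0.000184). Ptger4, a prostaglandin E2 receptor, read 10.63 and 9.61 and then 8.07, 6.38 and 6.08, with adjusted p up to 0.309 when 12 dpc array 1 was left out. In both genes 14 dpc array 1 lay between the 12 dpc arrays and the narrow-spread arrays. In the surface epithelium list of 15, Cdh1 was the 1 gene called, and the class-adjusted fit called 0 (Cdh1 at −3.25, adjusted p = 0.0529).

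Germ cell transcripts were low on average beside those of wild-type ovaries. The mean of 18 germ cell genes was 4.65 and 4.84 at 12 dpc and 5.46, 4.89 and 4.85 at 14 dpc, against means of 6.88 at 12 dpc and 9.04 at 14 dpc in wild-type ovaries, and 7 of the 18 were under the low-signal limit on all 5 arrays. Of the 18, 13 had a change above 0, with a median of 0.41. By limma 0 of the 18 were called, and the class-adjusted fit called 2 higher, Dazl and Slc25a31. Dazl, the RNA-binding protein that licenses germ cells, read 3.49 and 3.80 at 12 dpc and 7.54, 4.51 and 4.43 at 14 dpc, and Ddx4, the germ cell helicase, 3.38 and 4.08 and then 6.46, 3.28 and 3.13. Array 1 of 14 dpc thus stood above the others for both genes. Slc25a31, an ADP/ATP carrier of germ cells, read 5.32 on that array and 3.14 to 3.78 on the other 4. Among 25 meiosis genes 0 were called, and Stra8, the gatekeeper of meiotic entry, stood at 5.35 and 5.36 and then 5.97, 5.94 and 6.16. Smc1b, a meiotic cohesin, read 4.86 and 4.89 and then 6.16, 6.33 and 5.86, with an adjusted p of 0.0567, or 0.0374 in the class-adjusted fit. Rec8, another meiotic cohesin, read 8.52 and 8.89 and then 9.82, 9.79 and 9.54. It was higher on every later array without being called by limma (adjusted p = 0.123).

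Other cells of the organ gave few calls. In 20 endothelial, 18 macrophage and leukocyte, 10 mast cell and 15 smooth muscle and pericyte genes limma called 0, and the class-adjusted fit called 4, 1, 1 and 2 lower and 1 higher, Myl9 of smooth muscle (1.24). Of the 20 endothelial genes 17 had a change below 0, with a median of −0.41, or −0.25 in the class-adjusted fit. On the lower side 10 had no overlap, beside 18.5% of all genes, and on the higher side 2, beside 11.9%. Pecam1, the endothelial adhesion molecule, overlapped between ages, at 6.56 and 6.17 and then 6.07, 6.23 and 6.41. The leukocyte list mean went from 7.10 and 6.94 to 6.43, 6.42 and 6.33, with 17 of 18 members below 0. Of these genes 12 had no overlap on the lower side, beside 18.5% of all genes. With every probe set tested, another probe set of the leukocyte gene Coro1a and of the mast cell gene Hdc was called lower. Ptprc, the leukocyte antigen CD45, differed by −1.73 ± 0.53 with an adjusted p of 0.115. Among lists of p53 targets (14 genes), oxygen and glycolysis (13), imprinted growth genes (16), cell cycle inhibitors (17), pluripotency (19), oocyte (17) and housekeeping genes (15), limma called 0 in either direction. The class-adjusted fit called 1 cell cycle inhibitor higher, Cdkn1b, and 1 lower. It also called 1 oxygen and glycolysis gene and 1 housekeeping gene lower, the latter being Pgk1 (−0.63). Kitl, the ligand of Kit made by supporting cells, stood at 11.86 and 12.48 and then 13.06, 12.55 and 12.68, higher on every later array. Its change of 0.59 ± 0.34 was not called by limma (adjusted p = 0.401), while the class-adjusted fit called it (0.83, adjusted p = 0.041). All 4 of its probe sets rose, by 0.59 to 3.45, and 0 were called. Igf2, a fetal growth factor, stood at 13.47 to 13.92 on all 5 arrays.

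The same interval in wild-type ovaries, measured on 5 other arrays, was set beside the mutant, since germ cells are present there in normal number. Array 1 of the wild-type 14 dpc group was narrow-spread. Of the 130 genes that rose in Wv/Wv ovaries, 127 had a change above 0 in wild type and 59 were called higher there. In wild type 9254 of 18194 genes were above 0, and 472 (2.59%) were called, 283 (1.56%) higher and 189 (1.04%) lower. Of the 150 that fell, 139 had a change below 0 and 74 were called lower. The median change of the risen genes was 1.46 in Wv/Wv and 1.06 in wild type, and that of the fallen genes −1.95 and −1.56. The genes were chosen on the Wv/Wv change, so the Wv/Wv medians are a description. Irx3, Gng13, Lgr5 and Foxl2 changed by 1.93, 3.33, 2.55 and 1.75 in wild type and were called there, as were Hsd3b1 (3.39), Clu (2.19) and Hbb-bh1 (−3.70).

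**Figure D4:**
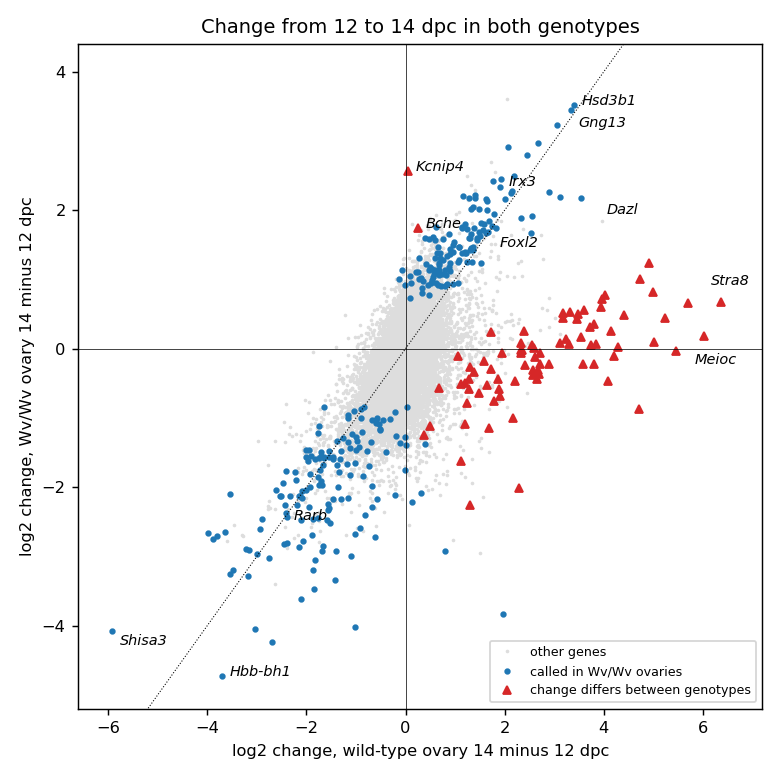
Log2 change from 12 to 14 dpc in wild-type ovaries (x axis) against that in Wv/Wv ovaries (y axis), 1 point per gene, with genes called in Wv/Wv ovaries in blue and genes whose change differs between genotypes in red, and the dotted line marking equal change. Meiotic genes such as Stra8 and Meioc lie far to the right near 0 on the y axis, and Kcnip4 and Bche rise on the y axis and lie near 0 on the x axis, with fitted values for genes under the low-signal limit such as Kcnip4 and Meioc.

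The test of the difference itself, the age by genotype interaction, called 81 genes (0.445%), 2 (0.011%) with a higher and 79 (0.434%) with a lower change in Wv/Wv ovaries. With the array class in the fit 498 (2.74%) were called, 49 (0.269%) higher and 449 (2.47%) lower. With 1 array left out the first fit called 34 to 88 genes, 34 without Wv/Wv 12 dpc array 2, and 53 and 49 without wild-type 12 dpc array 1 and array 2. Of 25 meiosis genes 15 were called here, among them Meioc, Stra8, Ugt8a, Tex12 and Sycp3. Wild-type ovaries at 14 dpc read 8.98 ± 0.67 (SD, n = 3) for Meioc, 11.60 ± 0.60 for Stra8, 9.62 ± 0.66 for Ugt8a, 9.42 ± 0.71 for Tex12 and 10.59 ± 0.81 for Sycp3. The Wv/Wv arrays of both ages and the wild-type arrays at 12 dpc were under the low-signal limit for all 5 except Stra8 in Wv/Wv ovaries at 14 dpc (5.94 to 6.16), so these differences are open at the low end and have no order. The germ cell list gave 5 of 18, Mael, Stk31, Rnf17, Slc25a31 and Taf7l, and the oocyte list 2 of 17, Sohlh2 and Taf4b. In the erythroid list 1 of 14, Rhag, was called, whereas 0 of 25 pregranulosa genes were.

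Of the 280 genes called in Wv/Wv ovaries, 6 also passed the interaction test. Kcnip4 and Bche rose in the mutant and differed from wild type, Bche by 1.49 ± 0.28 (adjusted p = 0.0073) and Kcnip4 with an adjusted p of 0.00571 and no measured size, since it was under the low-signal limit in both wild-type groups and in the mutant at 12 dpc. Bche, butyrylcholinesterase, read 6.57 and 6.32 at 12 dpc and 8.38, 8.17 and 7.99 at 14 dpc in Wv/Wv ovaries, and 6.70 ± 0.31 (SD, n = 2) and 6.95 ± 0.22 (SD, n = 3) in wild type. Both genes were higher on every later mutant array, and Kcnip4 read 4.18 ± 0.39 (SD, n = 2) and 4.23 ± 0.44 (SD, n = 3) in wild type. The other 4, Car2, Dgat2, Nup210 and Parpbp, fell in the mutant by 2.26, 1.12, 1.09 and 1.24 on the log2 scale and had wild-type changes of 1.30, 0.49, 1.19 and 0.37. Nup210, a nuclear pore protein, was called higher in wild type, and Car2, carbonic anhydrase 2 of red cells among other cells, read 8.91 and 10.94 on the 12 dpc arrays, with array 2 above array 1 as for the erythroid genes.

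Testes of Wv/Wv embryos over the same interval, on 5 further arrays, gave the change in the other sex. Array 2 of the testis 14 dpc group was narrow-spread. Of the 130 risen genes 117 had a change above 0 in the testis and 40 were called higher there, and of the 150 fallen genes 142 were below 0 and 43 were called lower. In the testis 8795 of 18194 genes were above 0, and 394 (2.17%) were called, 248 (1.36%) higher and 146 (0.802%) lower. The median changes in the testis were 0.78 and −1.18. Clu (3.49), Hsd3b1 (5.82), Eln (2.04), Mgp (1.81), Aldh1a1 (2.08) and Mrap (2.47) were called higher and Shisa3 (−4.94), Hbb-bh1 (−4.10), Rarb (−2.26) and Cdh16 (−3.24) lower in the testis too.

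**Figure D5:**
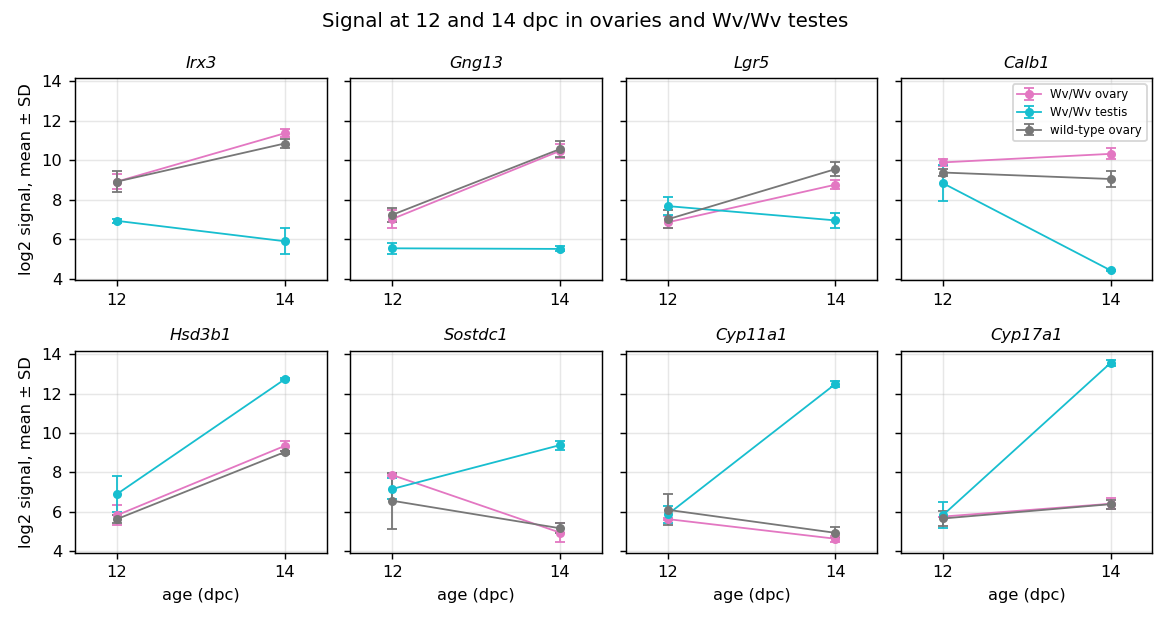
Mean log2 signal ± SD (y axis) at 12 and 14 dpc (x axis) in Wv/Wv ovaries (pink, n = 2 and 3), Wv/Wv testes (cyan, n = 3 and 2) and wild-type ovaries (grey, n = 2 and 3) for 8 genes named in the text. Irx3, Gng13 and Lgr5 rise in ovaries of both genotypes, and Cyp11a1 and Cyp17a1 rise in the testis.

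The age by sex interaction in Wv/Wv gonads called 54 genes (0.297%), 16 (0.0879%) with a higher and 38 (0.209%) with a lower change in the ovary. With the array class in the fit 452 (2.48%) were called, 201 (1.1%) higher and 251 (1.38%) lower. The interaction test called 25 to 64 with 1 array left out, 25 and 31 without Wv/Wv ovary 12 dpc array 1 and array 2 and 29 without Wv/Wv testis 14 dpc array 1. Among pregranulosa genes Irx3, Gng13 and Lgr5 were called. Irx3 changed by 2.45 in the ovary and −1.03 in the testis, a difference of 3.48 ± 0.38 (adjusted p = 1.12e-05), and Gng13 by 3.45 and −0.03. The testis level of Irx3 went from 6.93 ± 0.10 (SD, n = 3) to 5.90 ± 0.67 (SD, n = 2), below both ovary ages. Lgr5 differed by 2.63 ± 0.38, whereas the difference for Foxl2, 1.20 with an adjusted p of 0.455, was not called.

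Of the 280 genes called in the mutant ovary, 11 passed this test, 8 that rose (Bche, Bicdl1, Gm3515, Gng13, Irx3, Kcnip4, Lgr5 and Sorbs2) and 3 that fell (Cobll1, Sostdc1 and Tshz3). The ovary rise of Gm3515, of 1.59, had an adjusted p up to 0.0847 without 12 dpc array 2. Sostdc1, a secreted antagonist of BMP and WNT signals, read 7.92 and 7.82 at 12 dpc and 4.83, 5.49 and 4.52 at 14 dpc in the ovary and was called higher in the testis (2.22), a difference of −5.14 ± 0.62. Among steroid genes 6 of 12 differed by sex, Cyp11a1, Cyp17a1, Star, Fdx1, Cyp11b1 and Hsd17b7. Cyp17a1, which makes androgens, stood at 5.76 and 6.41 (means) in the ovary and at 5.83 and 13.55 in the testis. Tnfrsf19, a TNF receptor family member, and Calb1 were called lower in the testis (−2.44 and −4.42) and differed by 3.47 and 4.85, with ovary changes of 1.03 and 0.43 that were not called. Gng13 and Calb1 in the testis and Sostdc1 in the ovary were under the low-signal limit at 14 dpc, so the sizes of their differences are fitted and not measured. For Hsd3b1, which rose in both, the difference of −2.30 ± 0.62 was not called (adjusted p = 0.178).

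Upstream windows of the called genes were searched for 4 further motifs on both strands. RefSeq windows, 250 bases before to 50 after each start, were matched by symbol for 210 of the 280 called genes, 101 risen and 109 fallen. The Nr5a1-type site AAGGTCA was in 2.97% of the risen, 1.83% of the fallen and 5.38% of all 27025 genes, and the GATA site AGATAA in 9.9%, 9.17% and 12.7%. The element TTTGAA of cell cycle genes was in 10.9%, 20.2% and 20.2%, and the forkhead site GTAAACA in 0.99%, 9.17% and 4.05%. A match says that these letters are in the window, not that a factor binds there.

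The 16 dpc arrays of Wv/Wv ovaries, 3 in number and 2 of them wide-spread, gave a description of what followed. For all 130 risen genes every 16 dpc array lay above both 12 dpc arrays, beside 13.9% of all genes, and for 148 of the 150 fallen genes, all but Cdh1 and Fcgr3, every one lay below, beside 20.0% of all genes. The genes were chosen on their difference from these same 12 dpc arrays, so nothing is read from these counts. Hsd3b1 read 10.68, 10.08 and 10.86, Foxl2 10.39, 10.33 and 10.06, and Eln 10.00, 10.72 and 10.36, each above its 14 dpc values. Hbb-bh1 read 4.71, 5.03 and 5.45. Lgr5, at 9.37, 9.18 and 9.26, was above its 14 dpc values, while Irx3, at 11.31, 10.87 and 11.35, overlapped them. Cdh1 departed from the rest, with 8.16 on array 1 and 4.15 and 3.79 on the others.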

How the data were processed

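RNA of whole gonads, amplified and labelled by a 3′ method, was read on Affymetrix arrays. The deposited values are log2 probe set signals that the authors made with RMA, per the submitters' processing notes. For RMA's version, and for which arrays it normalized together, the entry is: not given in the sources used here. Of 45101 probe sets, 34958 had 1 gene symbol, and each of 18194 genes was read by its brightest probe set, by mean over all 31 arrays. The fit was limma 3.58.1 in R 4.3.3, with 1 mean for each of 12 groups over 31 arrays, eBayes and Benjamini-Hochberg adjustment over all genes. Genes with an adjusted p below 0.05 are called. The scripts were tested on simulated data. Arrays have no count depth, so the number of arrays limits the precision. A group with every array under 5.705, the 40th percentile of all values, has only a bound, and folds against it are lower bounds.

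The genes, lists and comparisons were chosen with earlier results of these data known. Named were the 10 largest rises and falls among called genes without overlap, up to 4 called members of each list (or its 2 largest changes), the 5 largest rises and falls of each interaction, and a panel of 28 genes. Others are given as examples or said to be chosen after their values were seen. Alternatives were the array class as a term, other scalings, weights, filters, every probe set, a 2-fold minimum, the replicate block, another prior, fewer arrays and each array left out. Upstream windows came from RefSeq's GRCm38.p6 tables.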

Additional observations from a re-analysis of the deposited data

Results flagged for a closer look

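The change from 12 to 14 dpc differed between genotypes or between sexes in the genes below, by limma's interaction test with an adjusted p below 0.05. Values are log2 differences, the Wv/Wv ovary change less the other change.

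Against wild-type ovaries the differences were −5.85 for Meioc, −5.69 for Stra8, −5.57 for Ugt8a, −5.49 for Tex12, −5.03 for Sycp3, −3.72 for Slc25a31 and −3.67 for Smc1b, genes of meiosis or germ cells. They were 1.49 for Bche and 2.50 for Kcnip4. Of these 9 genes 8, all but Bche, had at least 1 of the groups compared wholly under the low-signal limit, so their values are fitted and are neither measured sizes nor a ranking.

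Against Wv/Wv testes the differences were −7.61 for Cyp11a1, −7.07 for Cyp17a1, −5.80 for Gsta2, −5.21 for Hao2, −5.14 for Sostdc1 and −3.53 for Star. The positive differences were 1.28 for Bche, 2.16 for Kcnip4, 2.30 for Rec8, 2.62 for Sorbs2, 2.63 for Lgr5, 2.64 for Gm3515, 3.47 for Tnfrsf19, 3.48 for Irx3, 3.48 for Gng13 and 4.85 for Calb1. The same limit holds for 6 of these 16 genes, Calb1, Cyp11a1, Gng13, Gsta2, Kcnip4 and Sostdc1. Each of these differences passed in the class-adjusted fit too.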

How the results depend on the processing

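The number of called genes depended on the processing, for the Wv/Wv ovary change (280), the age by genotype interaction (81) and the age by sex interaction (54) in that order. It was 1215, 498 and 452 with the array class as a term, 853, 332 and 346 with wide-spread arrays alone, and 705, 127 and 129 when array 1 of wild-type testes at 16 dpc was dropped. Cyclic loess gave 909, 170 and 136, and limiting the fit to the arrays compared gave 45, 29 and 33. Quantile normalization gave 737 for the ovary change and 157 for the sex interaction, and housekeeping centring 571 and 106. Array weights, whose estimation stopped before it converged, gave 2315 for the ovary change and 1423 for the genotype interaction. Leaving out low-signal genes gave 41 for the genotype interaction. With 1 array left out the counts were 61 to 908, 34 to 88 and 25 to 64. With wide-spread arrays alone the 14 dpc group is 1 array, assumed to vary like the other groups. Of the 50 called genes named by rule, 11 were called under every alternative that tested them and 0 changed direction. Single genes were not followed with every probe set tested, and with low-signal genes left out 38 of the 50, and 9 of the 11, were tested. The cause of these differences was not tested.

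The replicate block gave 221, 75 and 37 calls. Only numbers 1 and 2 are shared between the ages, and the deviations of same-numbered arrays correlated at 0.09 and 0.02, so the arrays share a number without a shown pairing. Under the block 9 of the 50 named calls were lost.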
